A study of Mus musculus with 18 samples.

Results

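The 9 genes Mbp, Mag, Mog, Mobp, Cnp, Cldn11, Mal, Ugt8a and Apod, which make the myelin sheath of the central nervous system or mark the oligodendrocytes that form it, were followed over all 18 arrays of the series. They are 9 of the 18193 genes that the arrays name. Every probe set annotated with 1 of these symbols was taken, without regard to its values, which gave 25 probe sets: 8 for Mbp, 5 for Mobp, 3 for Cnp, 2 each for Mal, Ugt8a and Apod, and 1 each for Mag, Mog and Cldn11. A probe set is a group of short oligonucleotides that together report 1 transcript or part of it.

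Oligodendrocytes wrap axons with stacked membrane. Basic proteins bind its cytoplasmic faces together, claudin strands seal its layers, immunoglobulin-like proteins stand at its inner and outer surface, and galactolipids make up much of its lipid. The messenger RNA of some of these genes, Mbp first among them, is carried out of the cell body into the processes and is translated at the sheath. Motor neurons themselves do not make myelin, but their axons are heavily myelinated and oligodendrocytes lie against their cell bodies.

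The samples fall into 6 groups of 3, all from mice: spinal motor neurons from SOD1 mutant and from wildtype animals, motor neurons of the facial nucleus in the brainstem from mutant and wildtype animals, and ventral spinal cord tissue from mutant and wildtype animals. All RNA went through a T7-based linear amplification before hybridisation to 1 array per sample. SOD1 encodes a superoxide dismutase, and its mutations cause amyotrophic lateral sclerosis. All titles carry D60, which the labels leave unexplained, and the labels give neither the SOD1 allele and its copy number, nor strain, age, sex, or how the motor neurons were collected. Nothing ties a sample to an animal, so all p-values below measure the spread between samples, which may be technical.

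Levels are log2(intensity + 16) after quantile normalization over the 18 arrays, and differences are on that scale. A level of 7.65 is the 40th percentile of all probe sets, and levels under it are close to background. Array pairs of 1 group correlated at r of 0.98 to 0.985 in mutant tissue and 0.979 to 0.982 in wildtype tissue, against 0.879 to 0.951 in the 4 groups of motor neurons. A control for the length of amplified RNA is the 3' signal of actin divided by its 5' signal, in the deposited values, which grows as the RNA gets shorter. It was 25.3 to 39.1 in mutant spinal motor neurons, 40.9 to 56.9 in wildtype spinal motor neurons, 26.6 to 59.0 in mutant facial motor neurons and 59.7 to 74.4 in wildtype facial motor neurons, against 1.56 to 1.78 in mutant tissue and 1.59 to 1.70 in wildtype tissue. This ratio moves with every comparison between neurons and tissue, and its part in them was not tested. Most motor neuron markers followed the labels: past the limma test used below, 7 of 9 were higher in wildtype spinal motor neurons than in wildtype tissue (median log2 difference 1.87). Slc18a3 (0.48) and Slc5a7 (-0.42) did not pass there. The count was 8 of 9 in mutant spinal motor neurons against mutant tissue (median 2.17). It was 5 of 8 in wildtype facial motor neurons against wildtype tissue (median 1.54).

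Most myelin probe sets were far lower in motor neurons than in tissue, with the bright ones of Mbp as the exception in size, and the brightest probe set of every member stayed well above background in each motor neuron sample, the lowest value being 10.60 for Mog. With limma and Benjamini-Hochberg adjustment at 0.05 over 27022 tested probe sets, 22 of the 24 tested member probe sets were lower in mutant spinal motor neurons than in mutant tissue, where 26.6% of all tested probe sets were lower. The same count, 22 of 24, was lower in wildtype spinal motor neurons (22.6% of all) and in wildtype facial motor neurons (26.5% of all), each against wildtype tissue. One further probe set, 1425263_a_at of Mbp, was higher in all 3 comparisons, where 30.8%, 25.1% and 30.9% of all tested probe sets were higher. The median log2 difference of the 24 was -3.2 in mutant spinal, -3.04 in wildtype spinal and -3.09 in wildtype facial motor neurons, against medians of 0.08, 0.04 and 0.09 over all tested probe sets. When the deposited values were instead shifted to a common median, the counts were 18 lower and 3 higher in mutant spinal, and 17 lower and 3 higher in both wildtype comparisons. The 2 wildtype comparisons share their tissue arrays.

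**Figure D1:**
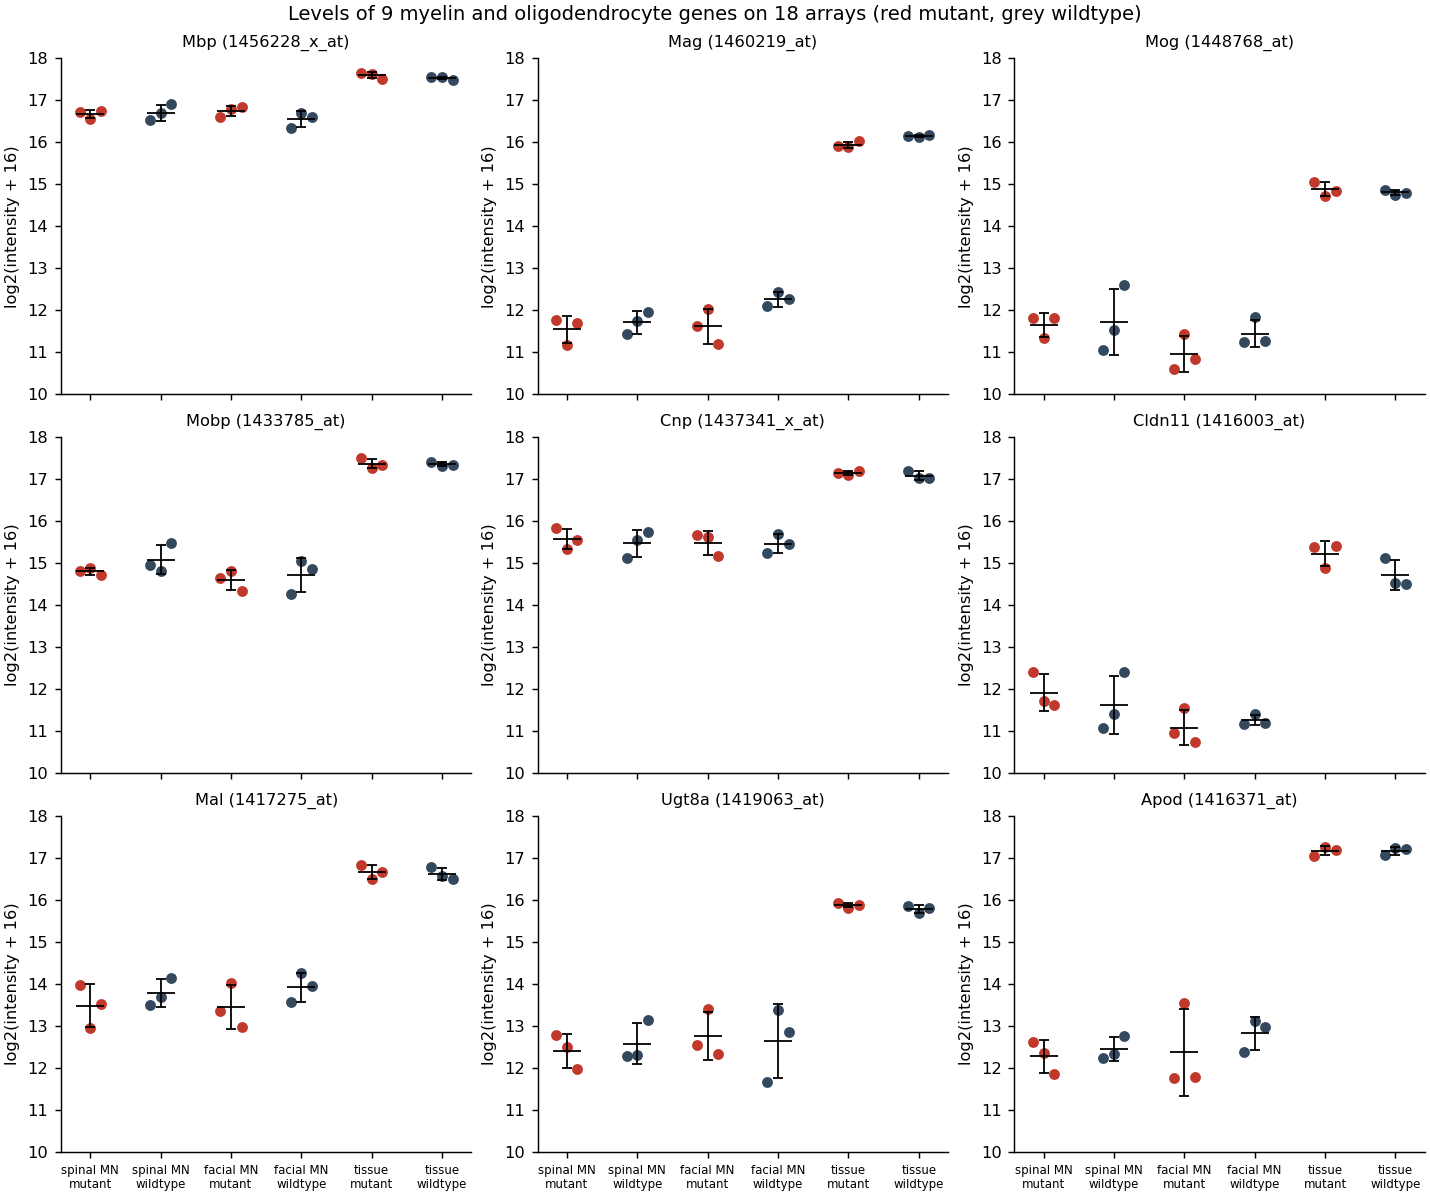
Level of the brightest probe set of each of the 9 genes on each array, as log2(intensity + 16) after quantile normalization (vertical axis), by group (horizontal axis, MN for motor neurons). Points are samples, and bars are the mean and SD of 3. In each panel the 12 motor neuron samples lie below the 6 tissue samples, and the direction of the difference turned for Mbp when arrays were shifted to a common median instead. Heights are not comparable between panels.

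For 23 of the 25 probe sets, all but 1425264_s_at and 1425263_a_at of Mbp, each of the 6 tissue arrays read above each of the 12 motor neuron arrays. No share over all probe sets was computed for that count over 18 arrays. A looser count takes 3 arrays against 3, in either direction. By it, 23 of 24 tested member probe sets did not overlap between mutant spinal motor neurons and mutant tissue (65.7% of all tested). The count was 24 of 24 between wildtype spinal motor neurons and wildtype tissue (60.4% of all). It was 23 of 24 between wildtype facial motor neurons and wildtype tissue (66.0% of all). The order of tissue above neurons did not hold in direction for the 4 bright Mbp probe sets under another scaling, as given below. The dimmest of the 23 in the stricter count, 1441308_at of Mobp, did not pass the filter on mean level in the comparisons of neurons with tissue. A probe set bright only in tissue passes that filter through the tissue arrays. This holds for 1419064_a_at of Ugt8a, which read 4.83 to 7.86 on the 12 motor neuron arrays and passed. In samples of many cells, fewer oligodendrocytes and less of a transcript per cell cannot be told apart.

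Among the proteins of compact myelin, Mbp (myelin basic protein, which holds the cytoplasmic membrane faces together) has 8 probe sets. The highest mean over the 18 arrays was that of 1456228_x_at, called the brightest here. That probe set read 16.71, 16.56 and 16.73 in mutant spinal motor neurons, against 17.65, 17.61 and 17.51 in mutant tissue. It read 16.52, 16.69 and 16.90 in wildtype spinal motor neurons and 16.33, 16.70 and 16.59 in wildtype facial motor neurons, against 17.54, 17.54 and 17.49 in wildtype tissue. In mutant facial motor neurons the values were 16.61, 16.79 and 16.83. The neurons lay below the tissue without overlap, but by less than for the brightest probe set of any other member. The log2 difference was -0.93 in mutant spinal (SE 0.07, adjusted p = 3.43e-06), -0.82 in wildtype spinal (SE 0.12, adjusted p = 0.000716) and -0.98 in wildtype facial motor neurons (SE 0.09, adjusted p = 4.14e-05), and it turned to 0.18, 0.48 and 0.36 under the median shift (adjusted p = 0.0472, 0.0475 and 0.00595), so that its call reversed. The probe sets 1433532_a_at, 1436201_x_at and 1454651_x_at ran the same way, with differences of -0.70, -0.82 and -0.91 in wildtype spinal motor neurons that turned to 0.59, 0.49 and 0.39 under the median shift. In the opposite direction 1433532_a_at passed in all 3 comparisons (adjusted p = 0.00666 in mutant spinal, 0.012 in wildtype spinal and 0.0025 in wildtype facial), and 1436201_x_at and 1454651_x_at passed in none. In wildtype spinal motor neurons that shift moved the median of all probe sets to 0.48 (0.14 under quantile normalization, no filter) and that of the brightest 1% to 1.61 (0.15). There the 4 Mbp differences lay near that of the median probe set and under that of the brightest ones. In mutant spinal motor neurons they were 0.06 to 0.35, against medians of 0.47 and 1.42. In wildtype facial motor neurons they were 0.14 to 0.45, against 0.44 and 1.7. In the deposited values, which share only their trimmed mean, the 4 differences in wildtype spinal motor neurons were -0.34, -0.23, -0.34 and -0.43.

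The other Mbp probe sets gave very different sizes from the same samples. The probe set 1451961_a_at read 10.50, 10.28 and 9.93 in mutant spinal motor neurons and 10.27, 10.45 and 10.70 in wildtype spinal motor neurons, against 17.51, 17.73 and 17.73 in mutant tissue and 17.61, 17.73 and 17.73 in wildtype tissue. Its log2 difference was -7.42 in mutant spinal, -7.21 in wildtype spinal and -7.97 in wildtype facial motor neurons (SE 0.15, 0.15 and 0.11, adjusted p = 1.78e-08, 4.8e-07 and 4.28e-08), which is 148-fold lower in the wildtype spinal comparison. It ranked 1 to 5 from the top on the tissue arrays, where quantile normalization fixes the values. The equal tissue readings and small SE therefore hold for that scaling only. In the deposited values the 3 differences were -7.3, -7.28 and -8. In tissue its difference from the brightest Mbp probe set was -0.14 to 0.24 on the 6 arrays, and on the 12 motor neuron arrays it was -7.04 to -6.05. Between these sizes lay 1419646_a_at, with -2.92, -2.23 and -3.30 in mutant spinal, wildtype spinal and wildtype facial motor neurons (SE 0.13, 0.28 and 0.12). The dim probe set 1425263_a_at rose instead, reading 11.18, 10.67 and 11.03 in mutant spinal motor neurons against 9.66, 9.69 and 9.46 in mutant tissue, and 11.21, 10.48 and 10.77 in wildtype spinal motor neurons against 9.22, 9.41 and 9.29 in wildtype tissue. Its differences were 1.36 in mutant spinal, 1.51 in wildtype spinal and 1.90 in wildtype facial motor neurons (adjusted p = 0.000482, 0.0026 and 0.000117), and its neighbour in name, 1425264_s_at, differed by 0.52, 0.70 and 0.88 there without passing the test. In the wildtype spinal comparison 1425264_s_at passed without wildtype spinal replicate 1 (0.91, adjusted p = 0.00795) and with the filter at the 60th percentile (adjusted p = 0.0433), and in the wildtype facial comparison without wildtype facial replicate 2 (1.37, adjusted p = 0.00106). In the deposited values 1425263_a_at differed by 0.65, 0.68 and 1.17 in the same direction, and 1425264_s_at by -0.15, -0.11 and 0.16. Mbp lies on chromosome 18 (82475091 to 82585637, GRCm38.p6) and spans 110547 bases, the longest of the 9 genes. The place of each probe set in the transcript was not analysed here.

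Mobp, a small basic protein of compact central myelin, lies on chromosome 9 (120149742 to 120181488). Its brightest probe set, 1433785_at, read 14.81, 14.88 and 14.71 in mutant spinal motor neurons, against 17.49, 17.27 and 17.34 in mutant tissue. It read 14.96, 14.81 and 15.47 in wildtype spinal motor neurons and 14.27, 15.04 and 14.87 in wildtype facial motor neurons, against 17.40, 17.31 and 17.34 in wildtype tissue. The log2 difference of Mobp was -2.57 in mutant spinal motor neurons relative to mutant tissue (SE 0.08, 5.92-fold lower, adjusted p = 6.77e-08). Relative to wildtype tissue it was -2.27 in wildtype spinal (SE 0.17, 4.82-fold lower, adjusted p = 3.51e-05) and -2.62 in wildtype facial motor neurons (SE 0.17, 6.16-fold lower, adjusted p = 8.73e-06). Its other 3 tested probe sets fell more: 1421010_at differed by -3.17, 1436263_at by -3.79 and 1450088_a_at by -6.59 in wildtype spinal motor neurons (SE 0.22, 0.39 and 0.20). The last of these read 8.87, 8.85 and 8.84 in mutant spinal motor neurons, against 16.18, 16.06 and 16.14 in mutant tissue, a difference of -7.28 (155-fold lower). All 5 Mobp probe sets read lower on every neuron array than on every tissue array, and 1441308_at was not tested. The differences of 1421010_at and 1436263_at lay close together in wildtype spinal motor neurons. In wildtype facial motor neurons they lay apart, at -3.04 and -4.43 (SE 0.09 and 0.14). The differences of 1433785_at and 1450088_a_at lay apart from each other by many times their SE.

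The stretch just before the Mobp start site is shown because it stands out among the members in 1 respect. SOX proteins, among them Sox10, a regulator of myelin genes, can bind DNA at letters such as ACAAAG, which read CTTTGT on the other strand. In the 250 bases before each RefSeq start site (GRCm38.p6), either form occurred in 16.5% of 32851 windows, and 3 or more copies occurred in 0.137%. Of the 8 members with a window (none was used for Mbp), 4 held it: Mobp with 6 copies, and Cnp, Apod and Mag with 1 each. Mag has 3 windows, of which 2 overlapping ones hold the copy. Mog, Cldn11, Mal and Ugt8a held none of these letters in their windows. The Mobp window was the only 1 of the 32851 with 6 copies. A match of letters is a description and no binding site. The motif was chosen with the member genes known, and the windows are printed 5′ to 3′ on the strand of the gene, with the matches in capitals, for Mobp (chr9:120149492-120149741, plus strand), Mag (chr7:30914923-30915172, minus strand) and Apod (chr16:31314809-31315058, minus strand).
Mobp: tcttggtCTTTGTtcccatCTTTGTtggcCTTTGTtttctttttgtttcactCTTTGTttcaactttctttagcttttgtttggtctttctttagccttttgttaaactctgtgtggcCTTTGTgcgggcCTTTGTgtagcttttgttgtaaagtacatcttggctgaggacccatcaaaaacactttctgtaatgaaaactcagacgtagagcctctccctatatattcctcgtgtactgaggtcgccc
Mag: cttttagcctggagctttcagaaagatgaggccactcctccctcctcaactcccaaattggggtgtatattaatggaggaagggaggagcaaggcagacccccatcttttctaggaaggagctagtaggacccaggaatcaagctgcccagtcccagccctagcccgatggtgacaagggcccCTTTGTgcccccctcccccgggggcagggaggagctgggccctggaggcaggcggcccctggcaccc
Apod: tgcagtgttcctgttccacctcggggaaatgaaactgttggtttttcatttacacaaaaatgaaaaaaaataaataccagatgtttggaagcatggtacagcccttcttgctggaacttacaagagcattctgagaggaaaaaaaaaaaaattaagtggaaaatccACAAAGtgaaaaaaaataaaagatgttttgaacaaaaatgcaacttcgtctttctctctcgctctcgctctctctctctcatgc

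Mal, a membrane proteolipid of myelin and of transport vesicles, lies on chromosome 2 (127633226 to 127656695). Its probe set 1417275_at read 13.97, 12.95 and 13.52 in mutant spinal motor neurons, against 16.82, 16.50 and 16.67 in mutant tissue. It read 13.50, 13.70 and 14.15 in wildtype spinal motor neurons and 13.57, 14.26 and 13.95 in wildtype facial motor neurons, against 16.78, 16.57 and 16.49 in wildtype tissue. Mal fell in all 3 comparisons, with a log2 difference of -3.18 in mutant spinal motor neurons relative to mutant tissue (SE 0.22, 9.09-fold lower, adjusted p = 2.75e-06). It was -2.83 in wildtype spinal (SE 0.18, 7.11-fold lower, adjusted p = 1.88e-05) and -2.69 in wildtype facial motor neurons (SE 0.16, 6.45-fold lower, adjusted p = 5.89e-06), both relative to wildtype tissue. The second Mal probe set, 1432558_a_at, differed by nearly as much, -2.84 in mutant spinal, -2.55 in wildtype spinal and -2.44 in wildtype facial motor neurons.

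Cldn11, the claudin of the tight-junction strands between myelin layers, lies on chromosome 3 (31149920 to 31164326). Its only probe set, 1416003_at, read 12.42, 11.71 and 11.62 in mutant spinal motor neurons, against 15.39, 14.88 and 15.41 in mutant tissue. It read 11.08, 11.40 and 12.41 in wildtype spinal motor neurons and 11.18, 11.41 and 11.20 in wildtype facial motor neurons, against 15.12, 14.52 and 14.50 in wildtype tissue. The third wildtype spinal sample stood about a log2 unit above the other two, and still far below tissue. For Cldn11 the log2 difference was -3.31 in mutant spinal motor neurons relative to mutant tissue (SE 0.22, 9.92-fold lower, adjusted p = 2.62e-06). Set against wildtype tissue, it was -3.08 in wildtype spinal (SE 0.34, 8.48-fold lower, adjusted p = 0.000193) and -3.45 in wildtype facial motor neurons (SE 0.18, 10.9-fold lower, adjusted p = 2.72e-06).

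Of the proteins at the surfaces of the sheath, Mag (myelin-associated glycoprotein, an adhesion protein on the inner membrane that faces the axon; chromosome 7, 30899175 to 30914922) was among the members with the largest falls. Its probe set 1460219_at read 11.77, 11.18 and 11.70 in mutant spinal motor neurons, against 15.90, 15.89 and 16.02 in mutant tissue. It read 11.43, 11.74 and 11.97 in wildtype spinal motor neurons and 12.09, 12.44 and 12.26 in wildtype facial motor neurons, against 16.14, 16.12 and 16.18 in wildtype tissue. The tissue samples of each genotype lay close together, far above all neurons. The log2 difference of Mag was -4.39 in mutant spinal motor neurons relative to mutant tissue (SE 0.15, 20.9-fold lower, adjusted p = 1.17e-07). It was -4.43 in wildtype spinal (SE 0.16, 21.6-fold lower, adjusted p = 2.94e-06) and -3.88 in wildtype facial motor neurons (SE 0.10, 14.8-fold lower, adjusted p = 2.36e-07), both relative to wildtype tissue.

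Mog (myelin oligodendrocyte glycoprotein, on the outermost face of the sheath; chromosome 17, 37010740 to 37023398) is made late, by myelinating oligodendrocytes. Its probe set 1448768_at read 11.82, 11.33 and 11.81 in mutant spinal motor neurons, against 15.06, 14.73 and 14.84 in mutant tissue. It read 11.06, 11.54 and 12.59 in wildtype spinal motor neurons and 11.25, 11.83 and 11.26 in wildtype facial motor neurons, against 14.87, 14.75 and 14.80 in wildtype tissue. The third wildtype spinal sample was the highest of the 12 motor neuron samples. Mog fell in all 3 comparisons, with a log2 difference of -3.22 in mutant spinal motor neurons relative to mutant tissue (SE 0.16, 9.35-fold lower, adjusted p = 4.97e-07). Set against wildtype tissue, it was -3.07 in wildtype spinal (SE 0.34, 8.43-fold lower, adjusted p = 0.000196) and -3.36 in wildtype facial motor neurons (SE 0.16, 10.3-fold lower, adjusted p = 2.13e-06).

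Cnp, a cyclic nucleotide phosphodiesterase of the uncompacted parts of the sheath and an early marker of the lineage, lies on chromosome 11 (100574909 to 100591875). Its brightest probe set, 1437341_x_at, read 15.83, 15.34 and 15.56 in mutant spinal motor neurons, against 17.15, 17.10 and 17.20 in mutant tissue. It read 15.12, 15.56 and 15.73 in wildtype spinal motor neurons and 15.24, 15.69 and 15.45 in wildtype facial motor neurons, against 17.20, 17.02 and 17.03 in wildtype tissue. For Cnp the log2 difference was -1.57 in mutant spinal motor neurons relative to mutant tissue (SE 0.11, 2.98-fold lower, adjusted p = 3.2e-06). Relative to wildtype tissue it was -1.61 in wildtype spinal (SE 0.16, 3.06-fold lower, adjusted p = 0.000127) and -1.62 in wildtype facial motor neurons (SE 0.11, 3.08-fold lower, adjusted p = 1.03e-05). Under the median shift this probe set kept its direction but differed by only -0.29 in wildtype spinal (adjusted p = 0.152) and -0.24 in wildtype facial motor neurons (adjusted p = 0.0682). The probe set 1418980_a_at differed by -3.01 and 1449296_a_at by -4.70 in wildtype spinal motor neurons (SE 0.33 and 0.16).

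Of the lipid genes, Ugt8a (ceramide galactosyltransferase, which makes the galactosylceramide of myelin; chromosome 3, 125865272 to 125938682) read 12.78, 12.49 and 11.98 in mutant spinal motor neurons at 1419063_at, against 15.93, 15.82 and 15.89 in mutant tissue. It read 12.29, 12.30 and 13.15 in wildtype spinal motor neurons and 11.67, 13.39 and 12.87 in wildtype facial motor neurons, against 15.85, 15.69 and 15.82 in wildtype tissue. The log2 difference of Ugt8a was -3.47 in mutant spinal motor neurons relative to mutant tissue (SE 0.18, 11.1-fold lower, adjusted p = 5.8e-07). Set against wildtype tissue, it was -3.21 in wildtype spinal (SE 0.23, 9.23-fold lower, adjusted p = 3.12e-05) and -3.14 in wildtype facial motor neurons (SE 0.37, 8.83-fold lower, adjusted p = 0.000188). The dimmer probe set 1419064_a_at read 5.81, 4.92 and 5.63 in wildtype spinal motor neurons, against 13.61, 13.58 and 13.56 in wildtype tissue. In neurons this is background, so the size of the difference depends on the pseudocount, and neither it nor a fold is given. The probe set is 1 of the 22 counted as lower in each comparison.

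Apod, a lipid-binding lipocalin abundant in oligodendrocytes of the adult cord (and also made by fibroblasts), lies on chromosome 16 (31296192 to 31314808). Its probe set 1416371_at read 12.63, 12.35 and 11.85 in mutant spinal motor neurons, against 17.05, 17.26 and 17.20 in mutant tissue. It read 12.25, 12.34 and 12.77 in wildtype spinal motor neurons and 12.39, 13.12 and 12.97 in wildtype facial motor neurons, against 17.06, 17.23 and 17.21 in wildtype tissue. Apod fell in all 3 comparisons, with a log2 difference of -4.90 in mutant spinal motor neurons relative to mutant tissue (SE 0.17, 29.8-fold lower, adjusted p = 1.19e-07). Relative to wildtype tissue it was -4.71 in wildtype spinal (SE 0.16, 26.2-fold lower, adjusted p = 2.94e-06) and -4.34 in wildtype facial motor neurons (SE 0.17, 20.2-fold lower, adjusted p = 8.76e-07). The fibroblast and mural list, given here for that reason, fell in 11 of 11 tested genes in mutant spinal and 9 of 11 in wildtype spinal motor neurons (medians -3.87 and -3.16), and in 6 of 11 in wildtype facial motor neurons (median -1.37, with 2 genes above 0). The second probe set, 1444564_at, was noisier, with differences of -4.14 in mutant spinal, -3.53 in wildtype spinal and -2.61 in wildtype facial motor neurons (SE 0.59, 0.80 and 0.25).

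**Figure D2:**
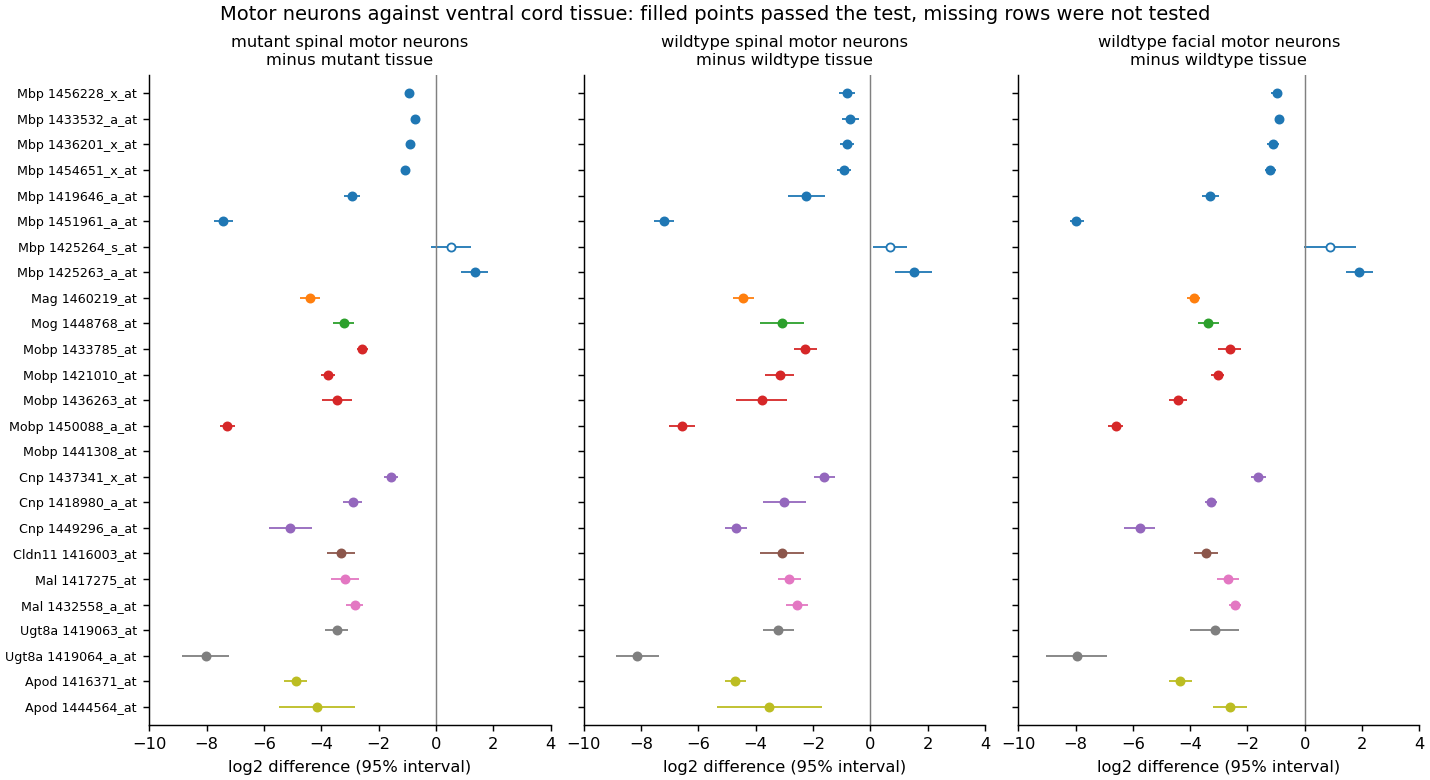
Log2 difference (horizontal axis, with 95% interval) of each member probe set (rows) in motor neurons minus tissue, for mutant spinal, wildtype spinal and wildtype facial motor neurons. Filled points passed the test. All rows but both dim Mbp ones lie left of 0, the 4 Mbp rows at the top nearest to it among these, and those 4 turned to the right of 0 when arrays were shifted to a common median.

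Of the 6 members with several probe sets, all but Mbp had their tested probe sets on the same side of 0, and the sizes differed between probe sets to an extent that varied by gene. Log2 differences within a gene in wildtype spinal motor neurons ran from -0.70 to -7.21 for Mbp (without its dim pair), -2.27 to -6.59 for Mobp, -1.61 to -4.70 for Cnp, -3.53 to -4.71 for Apod and -2.55 to -2.83 for Mal. Ugt8a is left out because 1 of its probe sets is at background in neurons. The brightest probe set has the highest mean over all 18 arrays, 12 of them from motor neurons, so its choice itself favours a small fall. It gave the smallest fall in Mobp and Cnp, but not in Mal (-2.83 against -2.55), Apod (-4.71 against -3.53) or Mbp (-0.82 against -0.70 for 1433532_a_at). The actin ratio given above, 40.9 to 56.9 in wildtype spinal motor neurons against 1.59 to 1.70 in wildtype tissue, moved with these comparisons, and its part in the disagreement within genes was not tested.

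The wider oligodendrocyte programme lay lower in motor neurons as well. Of the other myelin proteins, all 18 tested of 20 listed fell in wildtype spinal motor neurons relative to wildtype tissue (median -2.75). The 4 with the smallest p were the proteolipid Pllp (-4.57, SE 0.19), the tetraspanins Cd9 (-5.09, SE 0.23) and Cd82 (-3.37, SE 0.19), and the receptor Gpr37 (-3.52, SE 0.20). Of 15 tested genes of myelin lipid synthesis and handling, 13 fell and none rose (median -1.89), led by the hydroxylase Fa2h (-4.12, SE 0.19), the ceramide synthase Cers2 (-2.58, SE 0.15), the lipid transporter Abca2 (-3.41, SE 0.21) and the lipid droplet protein Plin3 (-4.23, SE 0.30). Of 13 tested transcription factors of the lineage, 11 fell (median -2.14). The 4 with the smallest p were Sox10 (-2.26, SE 0.15) and Sox8 (-3.55, SE 0.31), both SOX factors, the lineage factor Olig1 (-2.14, SE 0.17) and Myrf (-2.30, SE 0.21), which drives myelin genes in maturing cells. All 12 named genes had an adjusted p of at most 8.86e-05 in this limma fit.

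Precursor and late genes gave a more mixed picture. Of 11 tested oligodendrocyte precursor genes, 8 fell (median -1.76), with the receptor phosphatase Ptprz1 (-2.04, SE 0.15), the proteoglycan Bcan (-1.35, SE 0.13), the receptor Gpr17 (-3.34, SE 0.38) and Lhfpl3 (-1.76, SE 0.23) at the smallest p. Bcan no longer passed under the median shift (-0.14, adjusted p = 0.446). Of 19 tested genes of mature oligodendrocytes, 14 fell and 2 rose (median -1.68). The protease Klk6 (-5.29, SE 0.29), the prostaglandin synthase Ptgds (-1.57, SE 0.10; -0.26 and adjusted p = 0.174 under the median shift) and the carbonic anhydrase Car2 (-1.95, SE 0.16) fell. The adhesion protein Mcam rose by 2.33 (SE 0.20). The other riser, named after its value was seen, was Pex5l, a partner of neuronal ion channels (2.60, SE 0.26).

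Markers of other cell types fell beside the myelin genes. In wildtype spinal motor neurons against wildtype tissue, 9 of 10 tested astrocyte genes fell (median -2.76), as did 7 of 11 microglial (median -1.64), 6 of 7 endothelial (median -1.87), 9 of 11 fibroblast and mural (median -3.16), 3 of 4 Schwann cell (median -1.24) and all 7 tested interneuron genes (median -4.58). The median of the members with 1 probe set per gene, -3.07, lies within the range of these lists. Summed over the 9 genes, in units of 1000, the members' intensity was 200 to 241 in mutant spinal, 213 to 316 in wildtype spinal, 195 to 285 in mutant facial and 203 to 276 in wildtype facial motor neurons, against 751 to 788 in mutant and 721 to 785 in wildtype tissue. Summed intensities, here and below, are of the deposited values. A large part of the members' sum in neurons was Mbp 1456228_x_at, which alone read 97800 to 121000 in mutant spinal motor neurons and 157000 to 172000 in mutant tissue. The brightest probe set of each of the 9 genes stayed above 7.65 on all 12 motor neuron arrays.

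**Figure D3:**
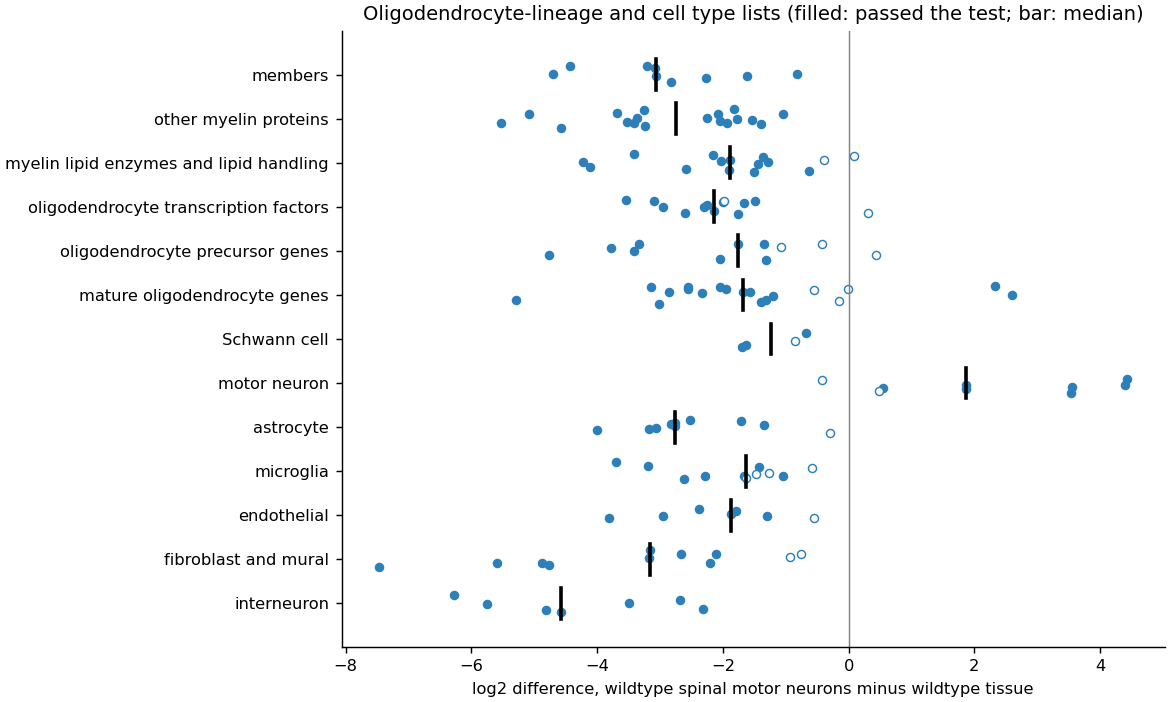
Log2 difference between wildtype spinal motor neurons and wildtype tissue (horizontal axis) for each tested gene of the lists (rows), 1 probe set per gene. Filled points passed the test and bars are list medians. The members have a median of -3.07, the other oligodendrocyte lists lie between -2.75 and -1.68, and only the motor neuron list lies to the right of 0. The Mbp point among the members turned to 0.48 under a shift to a common median.

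The effect of mutant SOD1 on these genes was asked first in ventral cord tissue, where their signal is highest and steadiest. None of the 25 member probe sets passed the test, against 0.281% of all tested probe sets (76 of 27022). At an unadjusted p under 0.05 the limma fit held 3 of the 25, and 8.08% of all. The differences had a median of 0.01, and 14 were above 0 and 11 below. Many of the 95% intervals in tissue were short. For the 4 bright Mbp probe sets they were -0.04 to 0.18, -0.06 to 0.14, -0.16 to 0.11 and -0.13 to 0.05. Those 4 ranked between 2 and 11 from the top on the tissue arrays, where quantile normalization fixes the values. Their short intervals therefore hold for that scaling only. Before it, 1456228_x_at read 17.26, 17.39 and 17.31 in mutant tissue, against 17.16, 17.38 and 17.36 in wildtype tissue. For Mobp 1433785_at the interval was -0.11 to 0.15, for Cnp 1437341_x_at -0.06 to 0.20, for Ugt8a 1419063_at -0.05 to 0.24 and for Apod 1416371_at -0.14 to 0.15. Of these, Mobp ranked 6 to 20 on the tissue arrays, Apod 21 to 53 and Cnp 28 to 59. Their intervals too hold for that scaling only.

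The 3 probe sets with the smallest p in tissue went different ways. Cnp 1449296_a_at read 15.16, 14.96 and 15.21 in mutant tissue, against 15.33, 15.49 and 15.58 in wildtype tissue. These groups did not overlap (difference -0.35, SE 0.09, adjusted p = 0.243), yet the other Cnp probe sets differed by 0.07 and -0.06. Mag read 15.90, 15.89 and 16.02 in mutant tissue, against 16.14, 16.12 and 16.18 in wildtype tissue, again without overlap (difference -0.21, SE 0.06, adjusted p = 0.324). Cldn11 ran the other way, with 15.39, 14.88 and 15.41 in mutant tissue against 15.12, 14.52 and 14.50 in wildtype tissue and with overlap (difference 0.51, SE 0.18, adjusted p = 0.474). None of the 3 passed the adjustment over all probe sets. The genotypes did not overlap in tissue for 4 of the 25 member probe sets, and for 13.9% of all tested, in either direction.

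Of the wider oligodendrocyte lists, 3 genes passed the test in tissue. Gpr37 (1450875_at), a receptor of myelinating oligodendrocytes, read 14.67, 14.59 and 14.67 in mutant tissue, against 15.04, 15.14 and 15.32 in wildtype tissue. Galc (1452907_at), the lysosomal enzyme that breaks down galactosylceramide, read 11.45, 11.27 and 11.26 in mutant tissue, against 12.08, 12.17 and 12.21 in wildtype tissue. Gsn (1456312_x_at), the actin-severing protein gelsolin, read 15.69, 15.64 and 15.72 in mutant tissue, against 15.26, 15.19 and 15.37 in wildtype tissue. In each case the genotypes did not overlap. Gpr37 fell by 0.53 (SE 0.08, adjusted p = 0.0346) and Galc by 0.83 (SE 0.11, adjusted p = 0.0205), and Gsn rose by 0.41 (SE 0.07, adjusted p = 0.0419). They are 1 each of 18 tested myelin proteins, 15 lipid genes and 19 mature oligodendrocyte genes. All 3 calls depended on single samples: without mutant replicate 2 or 3 or wildtype replicate 2 or 3 the adjusted p was 0.0927 to 0.243 for Gpr37 and 0.0671 to 0.177 for Galc. For Gsn it was 0.0686 to 0.322 without mutant replicate 1, 2 or 3 or wildtype replicate 1 or 2, and 0.118 under the median shift. None of the 3 passed without the variance trend or with all 18 arrays in 1 fit, and without the filter on low values Gpr37 (adjusted p = 0.0848) and Gsn (0.134) did not. The second Galc probe set that passed the filter differed by -0.36, and the 4 further Gsn probe sets that passed it by 0.39, 0.19, 0.11 and 1.05.

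Microglial markers and the astrocyte gene Gfap moved with genotype in the same tissue. All 12 microglial genes were above their wildtype level in mutant tissue, 6 of them past the test (median 0.69), among them Laptm5 (1.12, adjusted p = 0.00454) and Tyrobp (1.16, adjusted p = 0.00463). Their summed intensity, in units of 1000, was 103 to 115 in mutant tissue, against 71.4 to 75.7 in wildtype tissue. Of 10 astrocyte genes 1 passed, the filament gene Gfap (0.88, adjusted p = 0.0271), with a list median of 0.07. The astrocyte list summed to 441 to 457 in mutant and 398 to 419 in wildtype tissue. The part of these cells in the values of the myelin genes was not tested.

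In spinal motor neurons, 23 member probe sets were tested between genotypes and none passed, against 0.037% of all (10 of 27022). At an unadjusted p under 0.05 there were 2 of 23, and 7.70% of all. The genotypes did not overlap, in either direction, for 2 of 23, and for 13.2% of all. Of the 23 differences 18 were below 0, with a median of -0.17, against 0.01 over all probe sets. Mobp 1421010_at read 12.74, 12.60 and 12.67 in mutant spinal motor neurons, against 13.24, 12.94 and 13.85 in wildtype spinal motor neurons, without overlap (difference -0.68, SE 0.24, interval -1.20 to -0.15, adjusted p = 0.59). Mbp 1419646_a_at read 14.17, 14.52 and 14.74 in mutant spinal motor neurons, against 15.00, 14.62 and 15.87 in wildtype spinal motor neurons, with overlap (difference -0.69, SE 0.28, interval -1.32 to -0.06, adjusted p = 0.633). The intervals of other genes were wide, for example -0.89 to 0.73 for Mog and -0.52 to 1.09 for Cldn11, so differences of that size were not detectable with 3 samples a group. In these samples Gfap rose by 2.85 (adjusted p = 0.00464), the only 1 of 10 astrocyte genes past the test (list median 0.16). Of 10 tested microglial genes Laptm5 (2.63, adjusted p = 0.00464) and Ctss (2.0, adjusted p = 0.0413) rose. The microglial list summed to 70.2 to 93.4, in units of 1000, in mutant spinal against 11.1 to 28.3 in wildtype spinal motor neurons, and the astrocyte list to 202 to 209 against 169 to 210. The part of these cells in the myelin values was not tested. The actin ratio also differed, 25.3 to 39.1 in mutant against 40.9 to 56.9 in wildtype spinal motor neurons. With that ratio as a covariate the count of members past the test was again 0. That fit cannot show the part of the ratio, since the ratio did not overlap between genotypes and the count was 0 without it.

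In facial motor neurons the count was again 0 of 23, and 0% of all probe sets passed (0 of 27022, smallest adjusted p 0.0795). At an unadjusted p under 0.05 there were 4 of 23, and 15.6% of all. The genotypes did not overlap, in either direction, for 4 of 23, and for 22% of all. Mobp 1421010_at read 12.92, 13.14 and 12.42 in mutant facial motor neurons, against 13.32, 13.62 and 13.47 in wildtype facial motor neurons, which did not overlap (difference -0.64, SE 0.20, adjusted p = 0.189). Mag read 11.62, 12.04 and 11.19 in mutant facial motor neurons, against 12.09, 12.44 and 12.26 in wildtype facial motor neurons, also apart (difference -0.64, SE 0.24, adjusted p = 0.253). For this pair the mutant samples were the lower ones. Mbp 1419646_a_at read 14.41, 14.78 and 14.48 in mutant facial motor neurons, against 13.82, 14.36 and 14.11 in wildtype facial motor neurons (difference 0.46, SE 0.16, adjusted p = 0.231). Mbp 1433532_a_at read 16.65, 16.83 and 16.77 in mutant facial motor neurons, against 16.43, 16.54 and 16.62 in wildtype facial motor neurons (difference 0.22, SE 0.08, adjusted p = 0.257). For these Mbp probe sets the mutant samples were the higher ones, without overlap. The actin ratio did not overlap either, at 26.6 to 59.0 in mutant against 59.7 to 74.4 in wildtype facial motor neurons. With it as a covariate the count of members past the test was 0, which for the same reasons cannot show its part. Gfap differed by 2.90 (adjusted p = 0.123), and 0 of 10 astrocyte genes passed (list median 0.26). The microglial list summed to 20.2 to 23.6, in units of 1000, in mutant against 13.8 to 30.4 in wildtype facial motor neurons. The part of these in the myelin values was not tested.

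At its brightest probe set, 1456228_x_at, Mbp overlapped between genotypes in facial motor neurons (difference 0.20, interval -0.04 to 0.43). So did 7 further genes at theirs, the wildtype values being those given above. Mog read 10.60, 11.43 and 10.85 in mutant facial motor neurons, Cldn11 read 10.96, 11.55 and 10.74 in mutant facial motor neurons, and Mal 1417275_at read 13.36, 14.03 and 12.98 there. Ugt8a 1419063_at read 12.56, 13.40 and 12.33 in mutant facial motor neurons, and Apod 1416371_at read 11.77, 13.56 and 11.79 there. For Apod the second mutant facial sample stood well above its group. Mobp 1433785_at read 14.64, 14.80 and 14.34 in mutant facial motor neurons, and Cnp 1437341_x_at read 15.67, 15.63 and 15.16 there. At these probe sets the genotype differences of the 7 genes ran from -0.49 for Mog (interval -1.12 to 0.14) to 0.12 for Ugt8a (interval -0.80 to 1.04). Other probe sets of the same genes reached further, to -0.81 for Apod 1444564_at and 0.44 for Mobp 1436263_at.

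Whether the genotype effect differed between kinds of sample was tested as an interaction. For spinal motor neurons against tissue none of 24 member probe sets passed, against 0.0185% of all (5 of 27022), with 2 of 24 and 7.77% of all at an unadjusted p under 0.05. The smallest p was that of Mobp 1450088_a_at (difference of differences -0.69, SE 0.23, adjusted p = 0.632), which passed without wildtype spinal replicate 2 (-0.86, adjusted p = 0.0182). For spinal against facial motor neurons none of 23 passed, against 0.0037% of all (1 of 27022), with 1 of 23 and 8.86% at an unadjusted p under 0.05. That 1 was Mbp 1419646_a_at (-1.15, SE 0.36, adjusted p = 0.408), whose genotype difference was -0.69 in spinal and 0.46 in facial motor neurons.

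**Figure D4:**
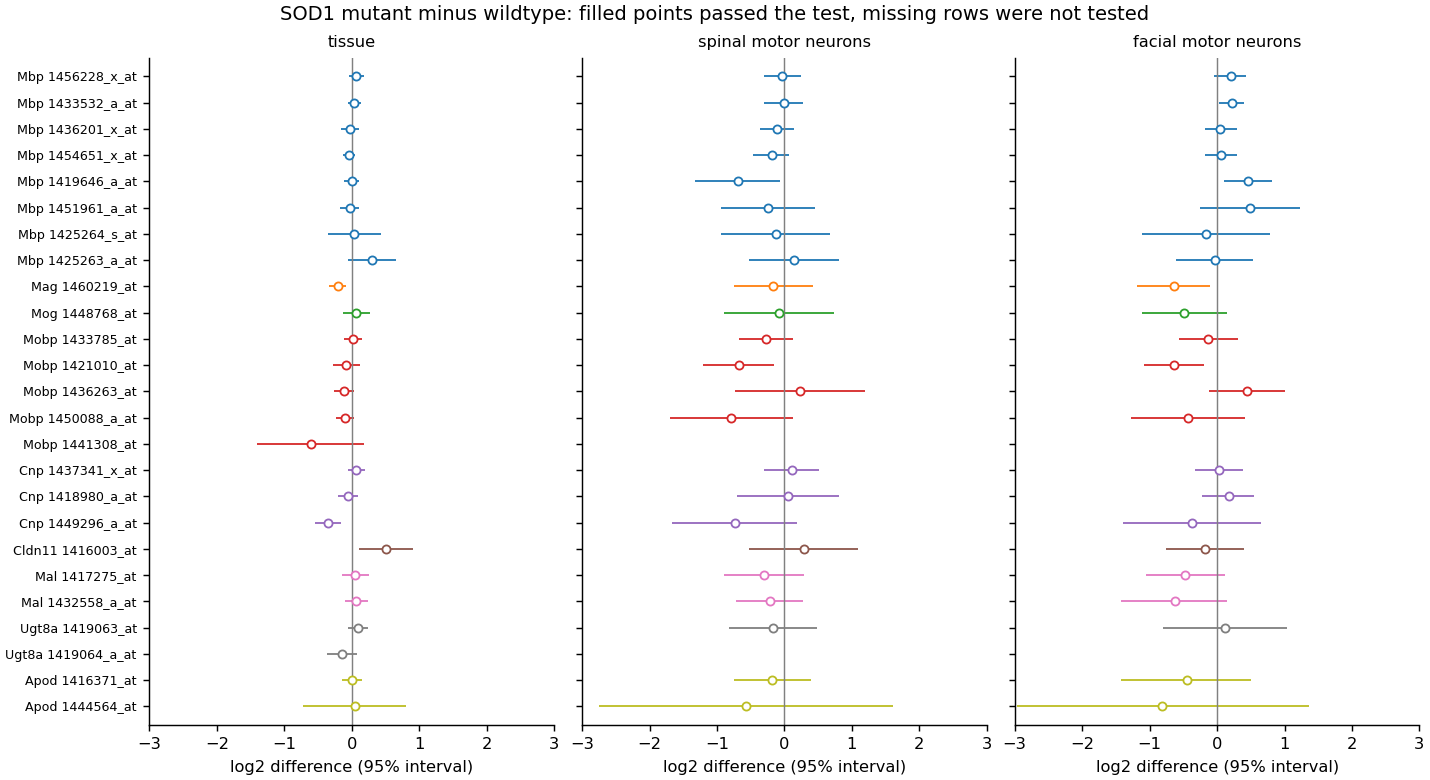
Log2 difference between SOD1 mutant and wildtype samples (horizontal axis, with 95% interval) for each tested member probe set (rows), in tissue, spinal motor neurons and facial motor neurons. No point is filled, since none passed the test. Intervals in tissue are short for most rows, such as -0.04 to 0.18 for the top Mbp row, and are wider in motor neurons.

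The next comparison set spinal against facial motor neurons, and no member passed it in either genotype. The count was 0 of 23 in mutant spinal against mutant facial motor neurons (3.25% of all tested probe sets passed) and 0 of 23 in wildtype spinal against wildtype facial motor neurons (2.08% passed). At an unadjusted p under 0.05 there were 2 of 23 in the mutant comparison (18.4% of all) and 6 of 23 in the wildtype comparison (19.1% of all). The groups did not overlap for 1 of 23 in the mutant comparison (24.2% of all) and 4 of 23 in the wildtype comparison (26.1% of all). In mutants, Cldn11 read 12.42, 11.71 and 11.62 in mutant spinal motor neurons, against 10.96, 11.55 and 10.74 in mutant facial motor neurons, without overlap (difference 0.83, SE 0.29, interval 0.21 to 1.46, adjusted p = 0.147). Mog differed by 0.69 (SE 0.27, adjusted p = 0.2). In wildtype samples, Mbp 1419646_a_at read 15.00, 14.62 and 15.87 in wildtype spinal motor neurons, against 13.82, 14.36 and 14.11 in wildtype facial motor neurons, without overlap (difference 1.07, SE 0.29, adjusted p = 0.0916). Without wildtype spinal replicate 2 this probe set passed (1.34, adjusted p = 0.0341), as it did with all 18 arrays in 1 fit (adjusted p = 0.00418). Mag ran the other way (difference -0.55, SE 0.23, adjusted p = 0.231).

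Of the wider lists, Gsn, Nfasc and Vcan passed in these comparisons. Gsn read 13.96, 14.11 and 13.83 in mutant spinal motor neurons, against 12.22, 12.75 and 12.44 in mutant facial motor neurons. Nfasc, the cell adhesion protein that anchors myelin beside the node of Ranvier and is also made by neurons, read 13.77, 13.75 and 13.92 in mutant spinal motor neurons, against 13.17, 12.90 and 13.14 in mutant facial motor neurons. Both were higher in all 3 mutant spinal samples. Gsn rose by 1.5 (SE 0.18, adjusted p = 0.00157), and its 6 probe sets differed by 0.40 to 1.99. Nfasc rose by 0.75 (SE 0.15, adjusted p = 0.026). The Nfasc call was lost without mutant spinal replicate 1, 2 or 3 or mutant facial replicate 3 (adjusted p 0.0525 to 0.103), under the median shift (0.0506) and without the variance trend (0.176), and the Gsn call only without that trend (0.0897). Vcan, a proteoglycan of precursors, read 10.11, 11.28 and 10.12 in wildtype spinal motor neurons, against 6.68, 8.03 and 7.48 in wildtype facial motor neurons (difference 3.11, SE 0.56, adjusted p = 0.0294). The Vcan call was lost when wildtype spinal replicate 2 or 3 or any wildtype facial sample was left out (adjusted p 0.0527 to 0.124). It was also lost when the variance trend was not used (0.0888). The other 7 Vcan probe sets were too dim to be tested, and their differences went both ways, from -1.11 to 1.34. Microglial genes differed beside these in mutants, with 8 of 10 higher in spinal than in facial motor neurons (median 1.87). In wildtype samples 0 of 10 passed (median -0.07). Gfap was higher by 3.87 in mutants (adjusted p = 4.34e-05), and 2 of 10 astrocyte genes passed there (list median 0.10). The wildtype Gfap values were also apart, 11.14, 10.81 and 11.35 in spinal against 7.26, 8.33 and 5.96 in facial motor neurons.

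The members varied together from one motor neuron sample to the next. Within wildtype spinal motor neurons, replicate 3 was the highest for 9 of 9 genes and replicate 1 the lowest for 8. Within wildtype facial motor neurons, replicate 2 was the highest for all 9 and replicate 1 the lowest for all 9. In mutant spinal motor neurons replicate 1 was the highest for 7, and in mutant facial motor neurons replicate 2 was the highest for 7 and replicate 3 the lowest for 6. The lowest mutant spinal sample was replicate 2 for 5 genes and replicate 3 for 4, so most members shared their highest sample there and were split over the lowest. With group means removed, all 36 pairs of genes correlated positively over the 12 motor neuron arrays (median r 0.67, range 0.42 to 0.96). Over the 6 tissue arrays 22 of 36 did (median 0.32). Without removing group means, 35 of 36 pairs over the 12 arrays were positive (median r 0.49), the exception being Mbp with Mag at -0.02. These correlations are descriptions, since genes of 1 array share its RNA, amplification and scaling.

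**Figure D5:**
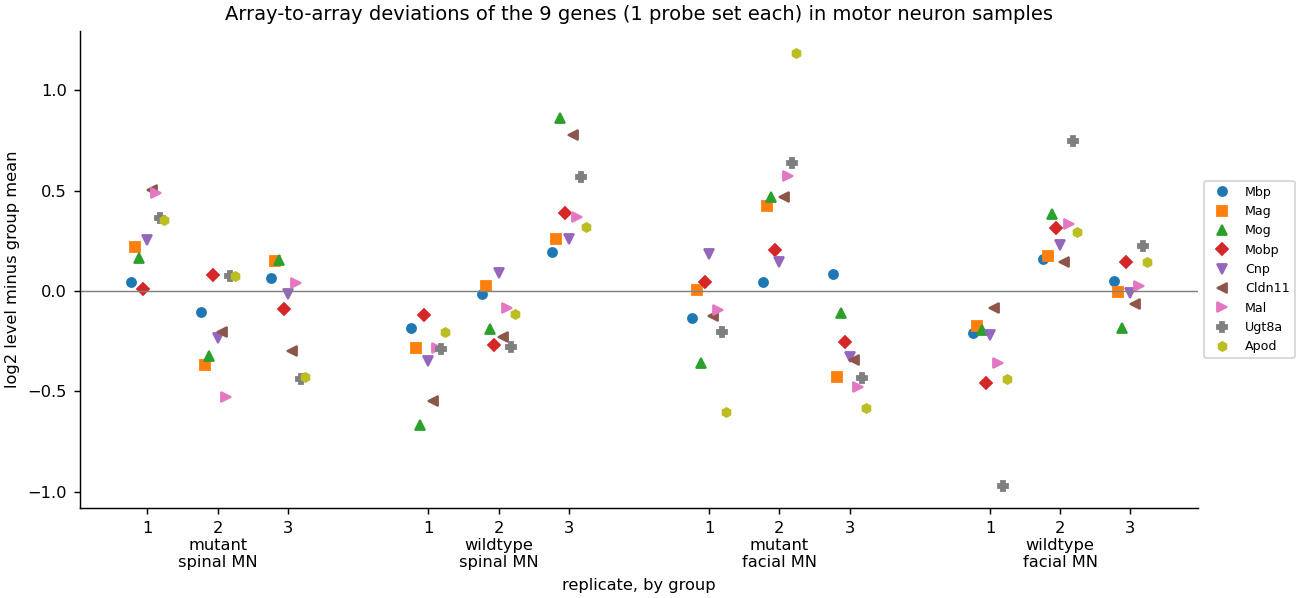
Level of the brightest probe set of each of the 9 genes minus its group mean (vertical axis, log2) on each of the 12 motor neuron arrays (horizontal axis, replicate number by group). Symbols are genes. Most genes lie on the same side of 0 in a sample, as in wildtype spinal replicate 3, where all 9 are above it. Replicate numbers have no order.

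The members' level spread more between replicates in motor neurons than in tissue. The median SD within groups over the 25 probe sets was 0.39 in neurons, against 0.10 in tissue, and it was larger in neurons for 24 of 25. Over all probe sets at or above the 40th percentile the SDs were 0.44 in neurons and 0.19 in tissue. The mean level of the 9 genes per sample was 13.20 to 13.64 in mutant spinal, 13.14 to 13.91 in wildtype spinal, 12.91 to 13.69 in mutant facial and 13.11 to 13.76 in wildtype facial motor neurons, against 16.34 to 16.49 in mutant and 16.30 to 16.44 in wildtype tissue. The 4 ranges in neurons overlap, and so do those in tissue.

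By likeness to that mean over the 12 motor neuron arrays, the closest of 12862 other genes were 1700047M11Rik (Pearson r 0.87), Gpr37 (0.86), Cdr2, Paics and Lama5 (0.85 each), Cybc1 and Olig1 (0.84 each), Ppp6c and Tmbim1 (0.83 each), and Glis2 (0.81). The 95th percentile of all these genes was 0.51 and the median 0.02. Of the 10, Gpr37 and Olig1 belong to the oligodendrocyte lists. Members set against the mean of the other 8 ranged from 0.45 for Mbp to 0.86 for Mal. These are the highest values among many genes over 12 arrays that share groups and scaling, and no p is given.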

How the data were processed

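Gene expression was measured on Affymetrix mouse arrays, 1 per sample. The authors deposited linear intensities, 1 per probe set, for 45101 probe sets. The scanner processing is not given in the sources used here. In the deposited intensities the mean, after trimming 2% at each end, was 2500 on every array. The number of arrays, 3 per group, limits the precision.

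The deposited intensities were taken as log2(intensity + 16), then brought to 1 common distribution over the 18 arrays by quantile normalization, since median log2 levels were 8.24 to 8.48 on neuron arrays and 9.10 to 9.23 on tissue arrays. This fixes the values of the top ranks, and the pseudocount of 16 understates changes of dim genes. The 64 control probe sets were left out. Of the rest, 34945 had 1 gene symbol, 932 several and 9160 none in the platform annotation. No member probe set had several.

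Each of 10 comparisons was fitted per probe set with limma 3.58.1 in R 4.3.3 (lmFit, eBayes with trend) on its own groups. Probe sets with a mean under the 40th percentile were left out and p-values were adjusted by Benjamini-Hochberg at 0.05 over the rest. SE is limma's standard error, n = 3 per group. The fit was tested on simulated data. The brightest probe set of a gene is the one with the highest mean level over the 18 arrays. In gene lists a gene is that probe set, and up to 4 genes per list and comparison are named, those past the test with the smallest p. Likeness names the 10 highest Pearson r. Promoter windows are from RefSeq (GRCm38.p6), and figures were drawn with matplotlib 3.10.9 in Python 3.11.15. The members and lists were chosen with earlier results of these data known.

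Alternatives were a median shift, a pseudocount of 1 or 64, no filter or the 60th percentile, 1 probe set per gene, no variance trend, all 18 arrays in 1 fit, the replicate number as a block, the actin ratio as a covariate in genotype comparisons, and each array left out. Same-numbered samples did not pair: their deviations correlated at -0.04 to 0.17 over 24 pairs.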

Additional observations from a re-analysis of the deposited data

Results flagged for a closer look

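No member probe set differed in its genotype effect between kinds of sample past the test. Among the marker genes given beside them, Gfap did: its genotype difference was larger in spinal motor neurons than in tissue by 1.97 on the log2 scale (limma interaction, adjusted p = 0.0479). Gfap read 13.84, 14.34 and 13.65 in mutant spinal and 11.14, 10.81 and 11.35 in wildtype spinal motor neurons, and 15.49, 14.93 and 15.00 in mutant and 14.23, 14.37 and 14.20 in wildtype tissue. Groups of 3 were not tested for single outlying samples.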

How the results depend on the processing

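With 1 probe set per gene, 9 of 9 members passed in each comparison of neurons with tissue, all lower, in place of 23 of 24 probe sets. Under the median shift the 4 bright Mbp probe sets (1456228_x_at, 1433532_a_at, 1436201_x_at, 1454651_x_at) turned, to 0.18, 0.35, 0.20 and 0.06 in mutant spinal, 0.48, 0.59, 0.49 and 0.39 in wildtype spinal and 0.36, 0.45, 0.24 and 0.14 in wildtype facial motor neurons. In wildtype spinal against facial motor neurons, 3 Mbp probe sets passed with all 18 arrays in 1 fit and 0 to 1 with a sample left out. For the interaction of spinal motor neurons with tissue it was 0 to 1. The cause was not tested. Under the other alternatives the total count of members past the test stayed within 1.5 times the count given. By direction, the count of higher members, 1 in each comparison of neurons with tissue, became 3 in each under the median shift (18 lower in mutant spinal, 17 lower in wildtype spinal and in wildtype facial), and 2 in wildtype spinal with the filter at the 60th percentile or without replicate 1 and in wildtype facial without replicate 2. The fit with the replicate block gave 23 in each comparison of neurons with tissue and 0 in the others, and changed no call of the members. Dim probe sets near background, such as 1419064_a_at in neurons, have no reliable size.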
